A study of Mus musculus with 15 samples.

Results

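The genes described here are the 41 mouse genes that encode Wnt ligands, their receptors and the secreted proteins that act on them, out of 55471 gene IDs counted in each of 15 RNA-seq libraries. They were chosen by name and comprise 19 Wnt ligands, the 10 Frizzled receptors with the co-receptors Lrp5 and Lrp6, the 4 R-spondins, 4 secreted Frizzled-related proteins (Sfrp1, Sfrp2, Sfrp5 and Frzb) and 2 genes of ligand secretion, Porcn and Wls. All 41 were present in the tables. The cells were E14, a mouse embryonic stem cell (mESC) line. Wild-type mESCs were nontreated or exposed to 500 nM dTAG-13 for 72 h. NSD1-dTAG knock-in mESCs, in which NSD1, a methyltransferase of histone H3 lysine 36, carries a degron tag, were nontreated. Embryoid bodies (EBs), which are aggregates of mESCs that differentiate in suspension, were made from the knock-in cells over 6 days without dTAG-13 or with 500 nM dTAG-13 throughout. dTAG-13 recruits a ubiquitin ligase to the degron, so that a tagged protein is degraded. Each of the 5 groups had 3 libraries, called biological replicates in the labels, and p-values measure the spread between them. All mESCs were grown in 2i/LIF medium, which holds the MEK inhibitor PD0325901, the GSK3 inhibitor CHIR99021 and leukemia inhibitory factor, whereas the EB medium as listed held serum and none of these. Both EB groups come from the knock-in line only. Wild-type EBs and knock-in mESCs with dTAG-13 were not analysed here.

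Wnt ligands are lipid-modified glycoproteins. Porcn acylates them in the endoplasmic reticulum and Wls carries them to the cell surface, where they bind Frizzled receptors. With Lrp5 or Lrp6 as co-receptor the signal keeps beta-catenin from being phosphorylated by GSK3 and degraded, and beta-catenin then acts with TCF/LEF factors on target genes. R-spondins raise the amount of Frizzled at the surface through Lgr receptors, and secreted Frizzled-related proteins bind ligands outside the cell. In the early mouse embryo Wnt3 is needed for the primitive streak, from which mesoderm and endoderm arise, and a GSK3 inhibitor such as that in 2i medium acts below ligand and receptor.

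Library sizes were 18704591 to 29103958 counts. In each group 1 library had a shorter read-weighted exon length and a higher share of ribosomal protein counts than the other 2. These short-transcript libraries were wild-type nontreated library 1, wild-type dTAG-13 library 3, NSD1-dTAG mESC library 1, nontreated EB library 3 and dTAG-13 EB library 3. The widest gap was in NSD1-dTAG mESCs, at 4.99 kb in library 1 against 5.74 and 5.78 kb. The 8 naive pluripotency markers summed to 2949 to 3695 CPM (counts scaled by library size) in the mESC libraries and to 243 to 554 CPM in EBs. The 7 markers of primitive streak and mesoderm summed to 33.5 to 41.3 CPM in mESCs. Nsd1 mRNA, which cannot report on degradation of the protein, was at 227 ± 25.001 CPM (SD) in nontreated and 272 ± 46.9 CPM in dTAG-13 EBs, with an adjusted p of 0.351. Of the core pluripotency genes Nanog fell with dTAG-13 in EBs, from 339.6 ± 21.2 to 204 ± 23.8 CPM (adjusted p = 0.0112). Pou5f1 (659 ± 145 and 610.3 ± 45.1 CPM) and Sox2 (338 ± 23.5 and 345 ± 40.8 CPM) did not pass the test.

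Promoter windows of RefSeq (GRCm38.p6), from 250 bases before to 50 bases after an annotated start, were found for 27 of the 41 genes, in 30 windows. They were searched on both strands for CTTTGAT and CTTTGTT, which are forms of the TCF/LEF core, and for the T-box core AGGTGTG. The 5 windows printed here are shown because they belong to genes called between EBs with and without dTAG-13 and hold a match, which is in capitals. A match on the other strand appears in capitals as its reverse complement. No 2 matches overlap.
Wnt3, chr11:103773925-103774224, plus strand: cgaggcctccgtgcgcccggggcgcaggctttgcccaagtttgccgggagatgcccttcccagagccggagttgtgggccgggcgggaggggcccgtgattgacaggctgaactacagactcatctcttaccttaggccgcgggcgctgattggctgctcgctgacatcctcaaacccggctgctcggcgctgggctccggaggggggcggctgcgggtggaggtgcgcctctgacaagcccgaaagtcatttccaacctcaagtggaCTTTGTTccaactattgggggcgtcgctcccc
Wnt5b, chr6:119449337-119449636, minus strand: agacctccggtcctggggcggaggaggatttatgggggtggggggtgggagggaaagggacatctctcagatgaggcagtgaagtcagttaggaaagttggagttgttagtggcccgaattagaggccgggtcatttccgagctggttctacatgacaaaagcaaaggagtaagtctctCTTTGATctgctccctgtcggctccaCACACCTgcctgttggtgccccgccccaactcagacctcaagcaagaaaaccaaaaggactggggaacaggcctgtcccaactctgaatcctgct
Wnt11, chr7:98834862-98835161, plus strand: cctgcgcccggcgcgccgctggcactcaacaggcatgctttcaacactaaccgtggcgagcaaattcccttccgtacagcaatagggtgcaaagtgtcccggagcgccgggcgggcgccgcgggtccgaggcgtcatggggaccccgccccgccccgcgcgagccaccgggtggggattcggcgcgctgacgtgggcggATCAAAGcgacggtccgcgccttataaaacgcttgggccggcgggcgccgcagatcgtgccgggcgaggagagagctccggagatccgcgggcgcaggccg
Frzb, chr2:80447347-80447646, minus strand: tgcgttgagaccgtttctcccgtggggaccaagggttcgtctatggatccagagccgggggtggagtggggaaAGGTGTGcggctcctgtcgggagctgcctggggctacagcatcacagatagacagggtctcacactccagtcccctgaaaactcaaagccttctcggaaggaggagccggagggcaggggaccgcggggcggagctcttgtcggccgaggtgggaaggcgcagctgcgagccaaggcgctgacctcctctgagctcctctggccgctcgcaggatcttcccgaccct
Fzd7, chr1:59481897-59482196, plus strand: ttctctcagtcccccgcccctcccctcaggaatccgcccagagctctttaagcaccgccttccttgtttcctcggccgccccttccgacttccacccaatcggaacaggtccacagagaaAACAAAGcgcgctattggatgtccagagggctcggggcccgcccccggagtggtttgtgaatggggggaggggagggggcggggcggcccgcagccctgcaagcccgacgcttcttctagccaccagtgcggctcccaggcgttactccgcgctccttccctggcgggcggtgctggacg
In the Wnt3 window CTTTGTT begins at base 269 of 300, and thus behind the annotated start. In the Wnt5b window, 1 of 3 for this gene, CTTTGAT begins at base 180 and the T-box core lies at base 206. The start of this window lies 94961 bases from the annotated gene start. Neither of the other Wnt5b windows, 1 of them at the gene start itself, held a match. CTTTGAT lies at base 200 in the Wnt11 window and CTTTGTT at base 121 in the Fzd7 window, both on the other strand. Another Wnt11 window held no match. AGGTGTG begins at base 74 in the Frzb window. CTTTGAT was found in 2 of the 30 windows (6.67%) and in 3.73% of all 32851 windows of the same length. CTTTGTT was found in 2 (6.67%) and in 5.85%, and AGGTGTG in 3 (10.0%) and in 5.84%. With so few matches the shares were not tested against each other. The median GC content was 69.8% in the 30 windows and 52.7% in all windows. These matches describe sequence, and no binding was measured.

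The Wnt repertoire was narrow in mESCs and broad in EBs. On a per-length scale (CPM per kb of exon), the summed ligand level was 6.06 ± 0.203 in wild-type nontreated mESCs (mean ± SD, n = 3), 6.63 ± 0.635 in wild-type dTAG-13 mESCs, 6.39 ± 1.19 in NSD1-dTAG mESCs, 45.3 ± 3.82 in nontreated EBs and 21.5 ± 7.002 in dTAG-13 EBs. Wnt5b, a ligand best known for beta-catenin-independent signalling, led in all 9 mESC libraries and held 85.2% ± 1.72, 86.2% ± 1.80 and 85.4% ± 2.05 of that sum in the 3 mESC groups. Wnt6 came next per kb in wild-type nontreated mESCs at 0.252 ± 0.0314, above Wnt8a in all 3 libraries, although their ranges overlapped, with Wnt8a at 0.189 ± 0.0261. In nontreated EBs Wnt8a, a ligand of the posterior embryo, led at 22.1 ± 4.11 per kb and held 49.3% ± 11.7 of the sum, and Wnt3 followed at 8.23 ± 2.16 per kb with 18.01% ± 3.42. Both stood clear of the next gene in all 3 libraries, whereas the ligands behind them, Wnt5b (2.69 ± 0.531 per kb) and Wnt7b (2.69 ± 1.06 per kb), did not separate. In dTAG-13 EBs Wnt8a held 53.2%, 60.7% and 24.7% of the sum in libraries 1, 2 and 3, and in library 3 Wnt9a, a ligand of joints and skull, had 27.3%. Wnt3 held 6.26% ± 3.61 there. Wnt1, Wnt8b, Wnt10a, Wnt16 and Rspo2 had at most 8 counts over any group of 3 libraries.

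**Figure D1:**
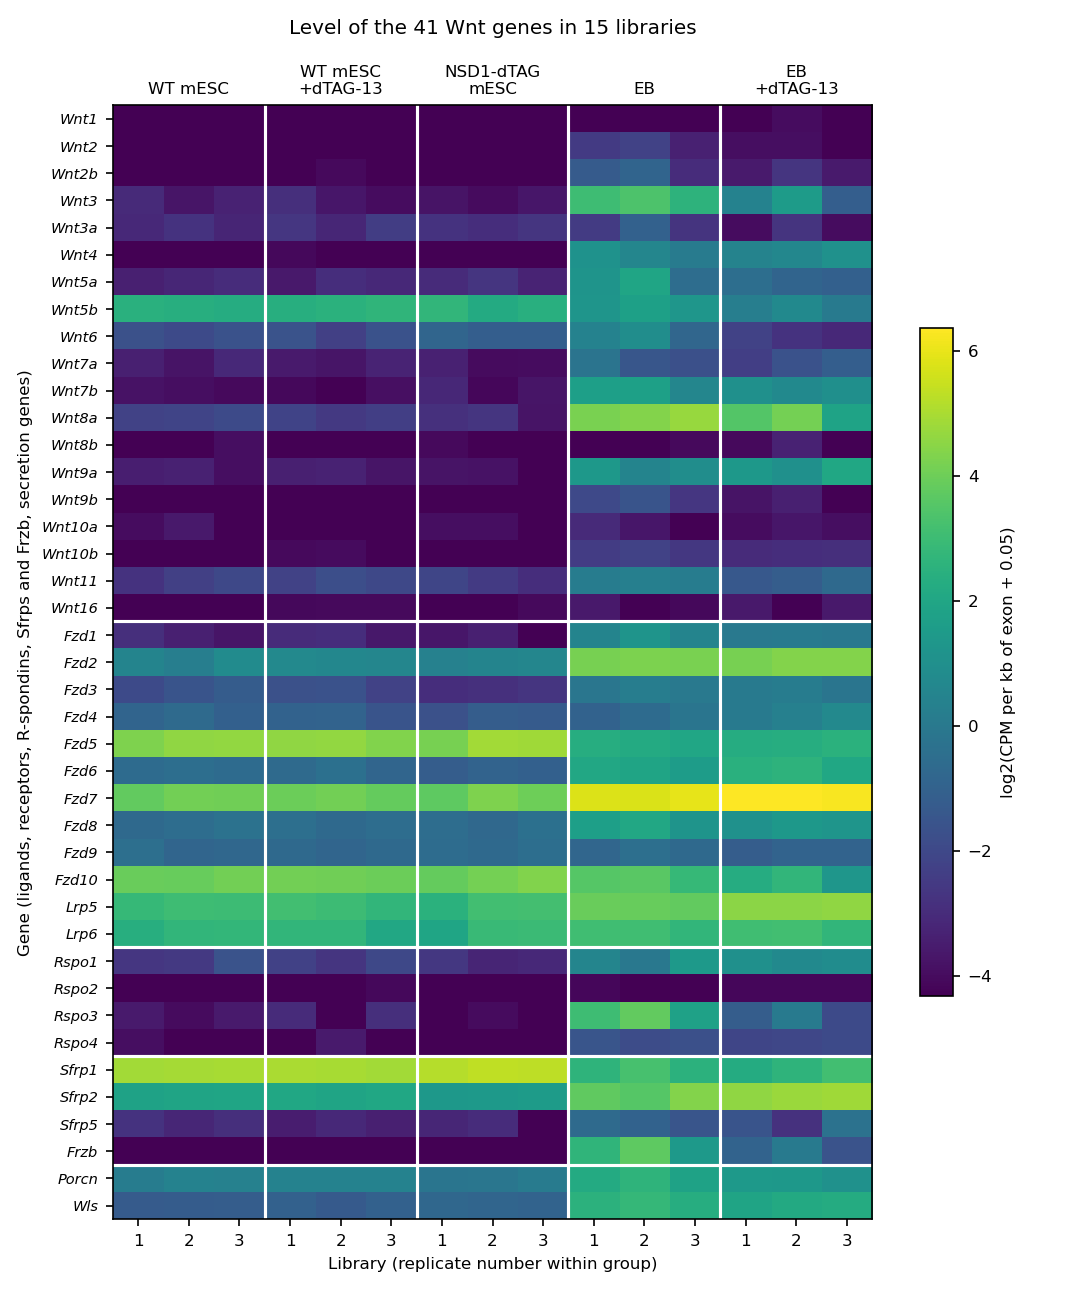
Level of each of the 41 genes (by class) in each of the 15 libraries (by group), as log2 of CPM per kb of exon plus 0.05. Most ligands, R-spondins and Frzb are at the low end of the colour scale in the 9 mESC libraries and higher in nontreated EBs, whereas Wnt5b, Fzd5, Fzd7, Fzd10, Lrp5, Lrp6 and Sfrp1 are high in every mESC library.

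Receptor mRNA was already abundant in mESCs. Summed over the 10 Frizzled genes, the level was 58.4 ± 5.26, 59.2 ± 4.64 and 62.5 ± 11.8 per kb in the 3 mESC groups, 102 ± 1.47 in nontreated EBs and 122 ± 5.59 in dTAG-13 EBs. Fzd5, Fzd7 and Fzd10 held nearly all of it in mESCs. In NSD1-dTAG mESCs Fzd5 had 40.3% ± 2.54, Fzd10 27.8% ± 2.60 and Fzd7 26.1% ± 2.27 of the sum, and Fzd5 was above Fzd10 in all 3 libraries, although the ranges overlapped across libraries. Fzd10 was above Fzd7 in 2 of 3 libraries. In nontreated EBs Fzd7, a Frizzled of pluripotent cells and mesoderm, led with 56.5% ± 4.78, followed by Fzd2 with 18.3% ± 0.372 and Fzd10 with 10.2% ± 2.80. Fzd5 held 4.48% ± 0.550 there. In dTAG-13 EBs Fzd7 held 66.4% ± 1.64 and Fzd10 3.75% ± 1.55. Lrp5 was at 14.6 ± 0.806 per kb in nontreated and 22.9 ± 0.801 per kb in dTAG-13 EBs, and Lrp6 at 7.83 ± 1.07 and 7.81 ± 1.19 per kb.

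**Figure D2:**
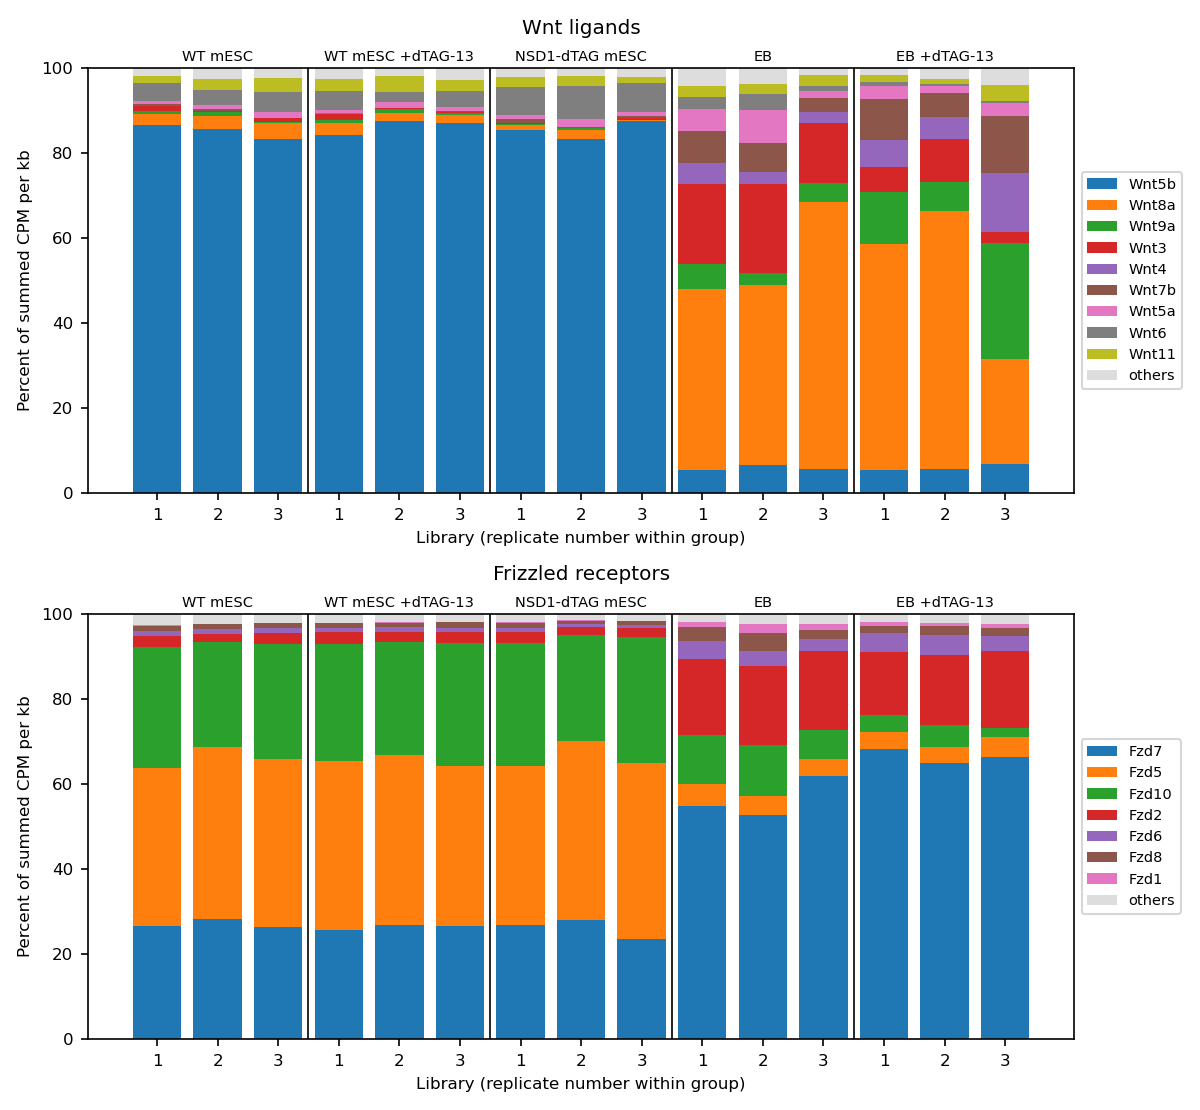
Share of each gene in the summed ligand level and in the summed Frizzled level, in percent of CPM per kb of exon, with 1 stacked bar per library and libraries grouped by condition. Wnt5b fills most of each mESC bar, Wnt8a and Wnt3 lead in the nontreated EB bars, and the Fzd5 and Fzd10 parts shrink from mESCs to EBs while that of Fzd7 grows.

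The secreted modulators had other leaders in each state. The summed R-spondin level was 0.205 ± 0.0970 per kb in wild-type nontreated mESCs and 0.0850 ± 0.0292 in NSD1-dTAG mESCs, and Rspo1 led in both. In nontreated EBs the sum was 10.5 ± 4.47 and Rspo3 held 76.3% ± 20.1 of it, whereas in dTAG-13 EBs it was 2.54 ± 0.2997, with Rspo1 at 71.8% ± 12.2. Sfrp1 made up 93.3% ± 0.108 of the summed level of the secreted Frizzled-related proteins in NSD1-dTAG mESCs. Sfrp2 had the highest mean in nontreated EBs, with 51.5% ± 18.2, but did not stand clear of Frzb, with 23.5% ± 14.3. In dTAG-13 EBs Sfrp2 had 78.4% ± 3.28 and Frzb 1.73% ± 1.07. With the union of exons as length, Porcn led Wls per kb in all mESC libraries (0.919 ± 0.102 and 0.510 ± 0.0306 in NSD1-dTAG mESCs). With the longest transcript as length this held in both wild-type groups, but in NSD1-dTAG mESCs the means were 1.05 ± 0.117 for Porcn and 1.26 ± 0.0756 for Wls, and Porcn was above Wls in 1 of 3 libraries. In nontreated EBs Wls was above Porcn in all 3 libraries (5.89 ± 0.952 and 4.76 ± 1.27), with ranges that overlapped across libraries, and by longest transcript the ranges did not overlap (14.6 ± 2.35 and 5.44 ± 1.45). These shares were not tested.

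In untagged wild-type mESCs no Wnt gene was called with dTAG-13. This comparison asks what the compound does where there is no tag. Of the 41 genes 19 had enough counts to be tested, and 0 were called at an adjusted p below 0.05 by edgeR, 0 by DESeq2 and 0 by limma-voom. The background was 0% of 13784 genes. With edgeR 0 of the 19 had an unadjusted p below 0.05, against 229 genes of the whole table (79 in DESeq2 and 243 in limma-voom, also with no gene called). Wnt5b was at 14.5, 13.6 and 13.05 CPM in the nontreated libraries and at 13.7, 14.9 and 17.0 CPM with dTAG-13, so that the groups overlapped. Wnt11, a ligand of beta-catenin-independent signalling and the gene with the smallest p here, was at 0.616 ± 0.207 and 0.842 ± 0.164 CPM. Its groups overlapped too, and it differed by 0.49 ± 0.30 (log2, SE; unadjusted p = 0.140). The median log2 difference was 0.0014 over the 19 genes and -0.0066 over all genes tested. Groups did not overlap in 0 of the 19 and in 5.96% of all genes tested. The 22 other genes, all 4 R-spondins among them, were below the count filter.

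The knock-in line differed from wild-type mESCs in 1 of the 19 tested Wnt genes, Fzd3, where 1.86% of 13895 genes were called (0.547% higher and 1.32% lower). Fzd3, a Frizzled with roles in axon guidance and planar polarity, was at 2.75, 3.75 and 4.89 CPM in the wild-type libraries and at 1.07, 1.17 and 1.36 CPM in NSD1-dTAG mESCs. The groups did not overlap, and the difference was -1.65 ± 0.25 (log2, SE; adjusted p = 0.0326). With replicate number as a block 3 genes were called, because Sfrp1 and Sfrp2 were added, and over all genes 785 in place of 259. Sfrp1, a Wnt-binding protein, was at 129, 132 and 138 CPM in wild-type and 160.4, 176 and 174 CPM in NSD1-dTAG mESCs. Sfrp2, its relative, was at 7.69, 7.97 and 8.32 CPM and 5.52, 5.89 and 6.21 CPM. Neither gene's groups overlapped. The log2 differences were 0.34 ± 0.08 for Sfrp1 (adjusted p = 0.0888, and 0.0337 with the block) and -0.45 ± 0.10 for Sfrp2 (adjusted p = 0.0876, and 0.0485 with the block).

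Wnt6 was second among the ligands in each mESC group by mean level per kb, though not by CPM in wild-type mESCs. It was at 0.586, 0.473 and 0.598 CPM in wild-type and 1.11, 0.905 and 0.893 CPM in NSD1-dTAG mESCs, without overlap and with an adjusted p of 0.125. Wls, Porcn, Fzd4 and Fzd6 also had groups that did not overlap and did not pass the test, with adjusted p-values from 0.113 for Fzd6 to 0.274 for Porcn. The long Lrp6 and Fzd5 transcripts were lowest in the short-transcript NSD1-dTAG library. Lrp6 was at 52.9 CPM there and at 102 and 105 CPM in the others, and Fzd5 at 127 CPM against 203 and 197 CPM. Leaving out the short-transcript libraries, 7 genes were called, with Fzd5, Fzd10, Lrp5, Lrp6 and Sfrp1 higher and Fzd3 and Sfrp2 lower, while 3123 of all genes were called. The call of Fzd3 ended when counts were scaled to the ERCC spike-in (adjusted p = 0.253), a scaling that moved the median log2 difference of all genes from 0.0118 to -0.0993. It also ended without wild-type library 1 (0.0778), 2 (0.159) or 3 (0.113) and without NSD1-dTAG library 2 (0.126) or 3 (0.0984). The other 11 tested genes, Wnt5b among them (adjusted p = 0.903), had overlapping groups. Groups that did not overlap were thus found for 8 of 19 Wnt genes and for 22% of all genes tested.

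From mESCs to EBs of the knock-in line most of the Wnt genes that could be tested rose. Of 33 tested genes 27 were higher in EBs and 4 lower, against a background in which 59.5% of 15193 genes were called, 33.1% higher and 26.3% lower. The median log2 difference was 3.41 over the 33 genes, also with the 5 tested genes at 0 counts in mESCs set to their lower bound, and 0.0163 over all genes tested. Groups did not overlap in 31 of the 33 genes and in 68% of all genes tested. Among mESCs alone, 19 of the 41 genes passed the count filter. The others tested here passed it through the EB libraries and could only be called higher. The number called higher, the median and the overlap count are thus partly set by the filter. Medium, time and cell state change together in this comparison and cannot be told apart, and in bulk RNA fewer cells of a type and less RNA per cell cannot be told apart either.

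All 12 tested ligands were called, 11 higher and 1 lower. Wnt3, Wnt4, Wnt7a, Wnt7b, Wnt8a, Wnt9a, Wnt9b and Wnt10b had at most 12 counts over the mESC group. They passed the count filter only through the EB libraries and could only be called higher. Wnt3 was at 0.0766, 0.0377 and 0.0851 CPM in the mESC libraries and at 25.5, 31.8 and 18.6 CPM in nontreated EBs, a log2 difference of 8.51 ± 0.37 (adjusted p = 1.07e-06). Wnt8a was at 0.153, 0.189 and 0.0425 CPM and at 32.6, 36.7 and 46.6 CPM, a difference of 8.17 ± 0.31 (adjusted p = 7.25e-07). These ligands went from 5 (Wnt3) and 10 (Wnt8a) counts over 3 libraries to the top of the class. Wnt5a, which signals through Ror receptors and planar polarity genes, was at 0.574, 0.830 and 0.425 CPM and at 17.96, 30.2 and 5.13 CPM in EBs, with the short-transcript EB library lowest (4.87 ± 0.69, adjusted p = 0.000412). Wnt7b rose by 6.37 ± 0.55, Wnt9a by 6.83 ± 0.50, Wnt7a by 4.16 ± 0.71 and Wnt11 by 3.07 ± 0.27 on the log2 scale. Wnt4, a ligand of kidney and gonad development, had 0 counts in mESCs and 556 in EBs, at least 164-fold higher when mESCs are set to 3 counts over the group. Wnt9b was likewise at least 23.7-fold and Wnt10b at least 12.1-fold higher. Wnt6 rose by 1.48 ± 0.44 (adjusted p = 0.0195), a call that ended with limma-voom (0.0553) and without NSD1-dTAG library 2 (0.0510), EB library 1 (0.0536) or EB library 2 (0.0753).

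Among the 12 tested ligands Wnt5b alone fell, from 17.5, 12.0 and 13.9 to 6.21, 8.77 and 6.45 CPM (-0.995 ± 0.20, adjusted p = 0.00264), without overlap. Of the other 11, only Wnt5a, Wnt6 and Wnt11 had enough counts to be tested among mESCs alone, and all of these rose. The rest passed the count filter through the EB libraries, so that their direction offers no contrast with Wnt5b. Of the 7 ligands not tested, Wnt2b had 0 counts in mESCs and 113 in EBs (at least 33.4-fold higher), and Wnt2 had 0 and 22 (at least 6.504-fold higher). Wnt3a had 20 and 55 counts with overlapping CPM, and Wnt1, Wnt8b, Wnt10a and Wnt16 had at most 7 in either group.

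Of the 12 receptors 8 rose and 2 fell, and Fzd9 and Lrp6 did not pass the test. Fzd2 went from 4.63, 5.06 and 5.36 to 66.3, 70.8 and 68.6 CPM, with a difference of 3.79 ± 0.12 (adjusted p = 4.78e-07). Fzd7 went from 59.6, 88.2 and 73.6 to 252, 248 and 284 CPM (1.84 ± 0.16). The groups of both were far apart against their spread. Fzd1 rose by 6.03 ± 0.52 from 8 counts over the mESC group, Fzd3 by 3.41 ± 0.19, Fzd6 by 3.07 ± 0.19, Fzd8 by 2.35 ± 0.25 and Lrp5 by 0.93 ± 0.18. Fzd4, a receptor of the retinal vasculature, rose by 0.91 ± 0.27 (adjusted p = 0.0195), and its call ended without NSD1-dTAG library 1 (0.0537), EB library 3 (0.0561) or all short-transcript libraries (0.0657). Fzd5, the leading Frizzled of mESCs, fell from 127, 203 and 197 to 35.1, 32.2 and 27.5 CPM (-2.46 ± 0.21, adjusted p = 2.33e-05). Fzd10 fell from 46.0, 56.2 and 66.3 to 38.0, 40.4 and 22.8 CPM (-0.71 ± 0.23, adjusted p = 0.0280). Fzd9 was at 1.44 ± 0.107 and 1.37 ± 0.188 CPM (adjusted p = 0.879) and Lrp6 at 86.6 ± 29.2 and 107 ± 14.7 CPM (adjusted p = 0.303), with overlapping groups for both.

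Among the secreted modulators Rspo3, an R-spondin of mesoderm and vessels, had 1 count in mESCs and 2293 in EBs, a ratio of 2034 with an exact 95% counting interval of 365 to 80362. Rspo1 rose by 4.33 ± 0.53, Rspo4 was at least 15.7-fold higher, and Rspo2 had 0 and 1 counts. Frzb, a Wnt-binding antagonist, had 0 counts in mESCs and was at 20.5, 42.4 and 8.66 CPM in EBs, at least 615-fold higher. Sfrp2 rose by 2.51 ± 0.23 and Sfrp5 by 3.19 ± 0.60, whereas Sfrp1 fell from 160.4, 176 and 174 to 27.2, 41.5 and 25.5 CPM (-2.41 ± 0.19, adjusted p = 1.83e-05). Both secretion genes rose without overlap. Porcn went from 2.53, 2.64 and 3.11 to 13.9, 18.3 and 10.7 CPM (2.39 ± 0.23, adjusted p = 4.80e-05) and Wls from 4.75, 4.49 and 4.21 to 51.6, 60.3 and 43.6 CPM (3.55 ± 0.16, adjusted p = 1.18e-06).

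In EBs with dTAG-13, 5 ligands, Rspo3, Frzb and Porcn were lower and 2 receptors higher than in nontreated EBs. Of 34 tested genes 8 were lower (Wnt3, Wnt5b, Wnt6, Wnt9b, Wnt11, Rspo3, Frzb and Porcn) and 2 higher (Fzd7 and Lrp5). Wnt6 and Wnt9b passed the count filter only through the nontreated EBs and could only be called lower. The background was 6.76% of 15236 genes, 3.98% higher and 2.78% lower. The median log2 difference was -0.48 over the 34 genes and -0.0056 over all genes tested. With the replicate block 17 of the 34 genes were called, 12 lower and 5 higher, the 10 above among them, while the calls over all genes went from 1030 to 1834. Groups did not overlap in 19 of the 34 genes and in 27.6% of all genes tested.

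The 5 ligands that fell differed in size. Wnt3 was at 25.5, 31.8 and 18.6 CPM in nontreated EBs and at 3.92, 8.81 and 1.25 CPM with dTAG-13. The groups did not overlap and the log2 difference was -2.44 ± 0.54 (adjusted p = 0.0368). Wnt6, a ligand of epithelia and somites, was at 2.79, 4.06 and 1.14 CPM and at 0.367, 0.211 and 0.147 CPM with dTAG-13, where every library was also below all 3 knock-in mESC libraries (0.893 CPM or more). Its log2 difference, -3.44 ± 0.55, was the widest of the called ligands (adjusted p = 0.0140). Wnt11 was tight in nontreated EBs, at 4.43, 4.80 and 4.46 CPM, and lower with dTAG-13, at 1.39, 1.65 and 2.39 CPM (-1.34 ± 0.23, adjusted p = 0.0167). Wnt5b, which also fell from mESCs to EBs, was at 6.21, 8.77 and 6.45 CPM and at 3.01, 4.28 and 2.65 CPM (-1.11 ± 0.23, adjusted p = 0.0291), again without overlap.

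Wnt9b, a ligand of kidney development, had 80 counts over the nontreated and 9 over the dTAG-13 EBs (-3.05 ± 0.68, adjusted p = 0.0374). Wnt9b and Wnt3 are neighbours on chromosome 11, transcribed away from each other with 24.3 kb between them, and both were lower. In each of the other 3 pairs of ligand genes within 100 kb of each other, 1 gene was below the count filter. Both genes of these pairs could therefore not be called, and no contrast with Wnt9b and Wnt3 can be drawn. Wnt6 fell beside Wnt10a, 6.2 kb away, which had 7 and 4 counts. Wnt9a (adjusted p = 0.332) lies 16.2 kb from Wnt3a, which had 55 and 10 counts. Wnt10b (adjusted p = 0.201) lies 11.7 kb from Wnt1, which had 0 and 1 counts.

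**Figure D3:**
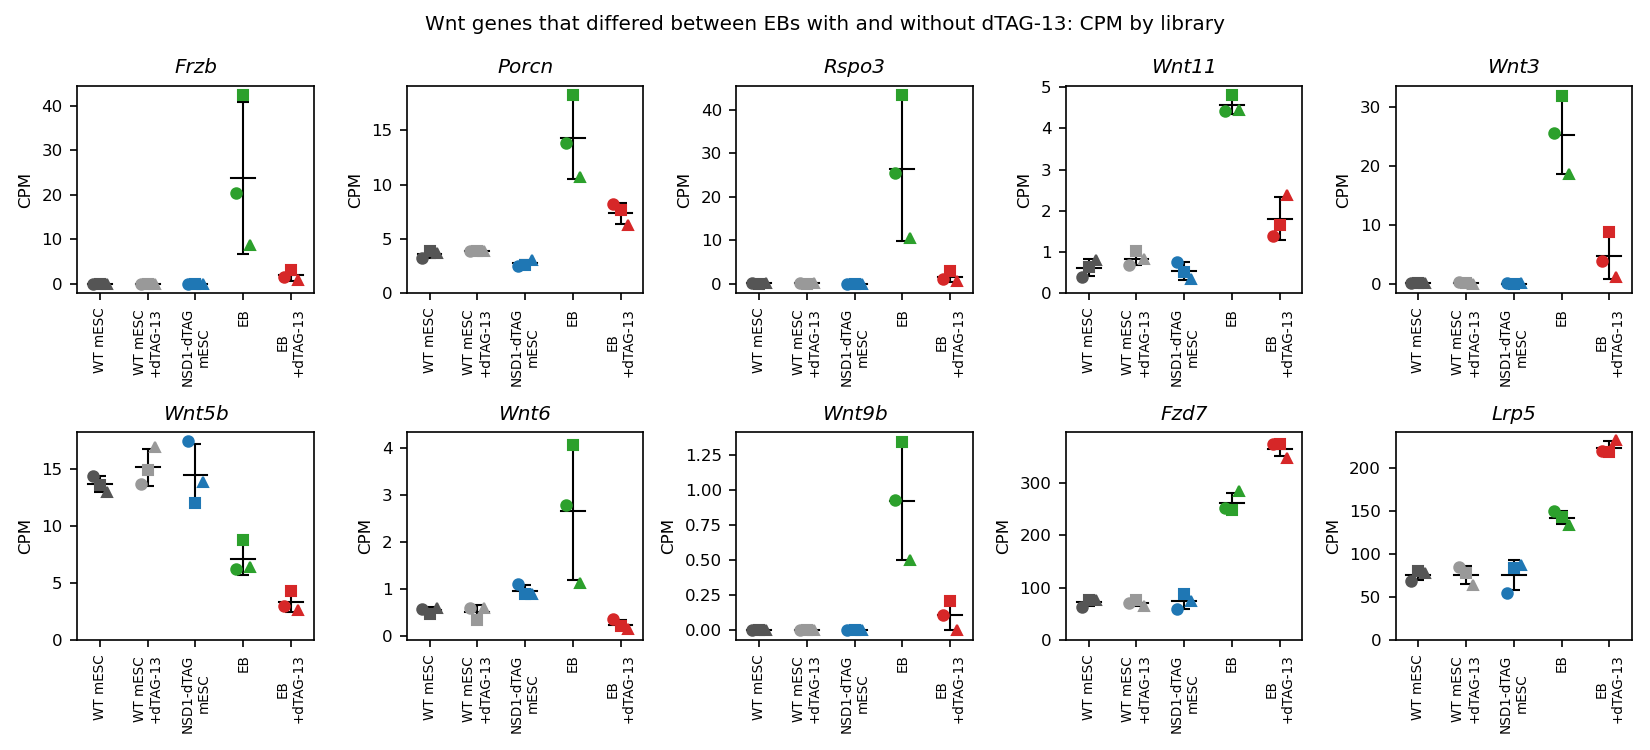
CPM of the 10 genes called between EBs with and without dTAG-13, in each of the 15 libraries, each panel on its own linear axis from 0. Points are libraries (circle, square and triangle for replicates 1, 2 and 3), the horizontal line is the group mean and the bar its SD over 3 libraries. The nontreated and dTAG-13 EB points do not overlap in any panel.

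The leading ligand, Wnt8a, was at 32.6, 36.7 and 46.6 CPM in nontreated EBs and at 19.6, 30.5 and 6.36 CPM with dTAG-13. The groups did not overlap, but the dTAG-13 libraries were spread widely, and the difference of -1.04 ± 0.45 did not pass the test (adjusted p = 0.227). Wnt5a was at 17.96, 30.2 and 5.13 CPM and at 5.24, 3.86 and 3.45 CPM, with an overlap between nontreated library 3 and dTAG-13 library 1 (-2.09 ± 0.54, adjusted p = 0.0612, and 0.0398 with the replicate block). Wnt2b, at 1.54, 2.05 and 0.321 CPM and at 0.147, 0.456 and 0.147 CPM, missed the threshold (adjusted p = 0.0933) and passed it with the block (0.0190). Wnt4, Wnt7a, Wnt7b, Wnt9a and Wnt10b did not pass the test, and Wnt4 was at 6.49 ± 2.32 and 6.78 ± 1.62 CPM (0.06 ± 0.28). Of the ligands below the count filter, Wnt2 had 22 counts in nontreated and 2 in dTAG-13 EBs, a nontreated to dTAG-13 ratio of 10.6 (exact 95% counting interval 2.61 to 93.3), and Wnt3a had 55 and 10 counts. Wnt1, Wnt8b, Wnt10a and Wnt16 had at most 8 counts in either group.

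Both receptors that rose were abundant. Lrp5 was at 149, 143 and 134 CPM in nontreated EBs and at 219, 218 and 232 CPM with dTAG-13, with groups far apart against their spread (0.65 ± 0.08, adjusted p = 0.00726). Fzd7 was at 252, 248 and 284 CPM and at 375, 374 and 349 CPM (0.48 ± 0.09, adjusted p = 0.0254). Lrp6, the other co-receptor, was at 116, 115 and 90.04 CPM and at 114, 118 and 88.1 CPM, and its groups overlapped (-0.01 ± 0.14). Fzd10 was at 38.0, 40.4 and 22.8 CPM and at 15.9, 21.3 and 7.83 CPM, and Fzd4 at 3.14, 4.17 and 5.63 CPM and at 6.78, 8.18 and 10.6 CPM. The groups of neither gene overlapped, and both had an extreme value in each short-transcript library. Fzd10 (-1.17 ± 0.34, adjusted p = 0.0868), Fzd4 (0.98 ± 0.25, 0.0610), Fzd1 (-0.81 ± 0.22, 0.0750) and Fzd6 (0.51 ± 0.17, 0.125) did not pass the test. With the replicate block Fzd10 (adjusted p = 0.00682) and Fzd1 (0.0419) were called lower and Fzd4 (0.0105) and Fzd6 (0.0224) higher. Fzd2, Fzd3, Fzd5, Fzd8, Fzd9 and Lrp6 were not called with or without the block. For Fzd2 and Fzd3 the differences were 0.09 ± 0.09 and -0.002 ± 0.15.

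Of the R-spondins Rspo3 had the widest fitted difference of all 34 tested genes. It was at 25.4, 43.3 and 10.4 CPM in nontreated EBs and at 1.21, 3.05 and 0.661 CPM with dTAG-13, and the lowest nontreated library was above the highest treated one (-3.99 ± 0.63, adjusted p = 0.0137). Rspo1, at 2.71, 1.81 and 5.13 CPM and at 3.85, 3.16 and 3.45 CPM, overlapped (0.11 ± 0.35). Rspo4 was at 0.619 ± 0.0891 and 0.470 ± 0.0392 CPM (adjusted p = 0.477), and Rspo2 had 1 and 3 counts. Frzb, the antagonist, was at 20.5, 42.4 and 8.66 CPM and at 1.54, 3.19 and 0.919 CPM, without overlap (-3.65 ± 0.63, adjusted p = 0.0176). Sfrp2 was at 28.7, 25.4 and 44.9 CPM and at 52.1, 58.6 and 62.5 CPM, also without overlap (0.80 ± 0.21, adjusted p = 0.0604, and 0.0186 with the replicate block). Sfrp1 and Sfrp5 did not pass the test (adjusted p = 0.803 and 0.871). Porcn was at 13.9, 18.3 and 10.7 CPM and at 8.17, 7.65 and 6.28 CPM (-0.96 ± 0.21, adjusted p = 0.0337), and Wls at 51.6, 60.3 and 43.6 CPM and at 32.5, 38.9 and 42.0 CPM (-0.46 ± 0.14, adjusted p = 0.0998). Neither pair of groups overlapped.

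The lower genes also differed between the libraries of a group. Of the 8 genes that fell, all 8 were highest in nontreated EB library 2, 6 were lowest in library 3 of that group, and, of the dTAG-13 libraries, 5 were highest in library 2 and 7 lowest in library 3. Of all 424 genes called lower, these 8 included, 64.4% were highest and 70.5% lowest in those nontreated libraries, and 46.9% highest and 45.8% lowest in those dTAG-13 libraries. The sum of the primitive streak and mesoderm markers (T, Mixl1, Eomes, Mesp1, Tbx6, Msgn1 and Gsc) was 458, 731 and 285 CPM in nontreated EB libraries 1, 2 and 3 and 52.9, 114 and 27.6 CPM in the dTAG-13 libraries, also highest in library 2 and lowest in library 3 of each group. Of the 7 markers Mixl1, Eomes, Mesp1, Msgn1 and Gsc were called lower, while T was at 239 ± 111 and 14.3 ± 16.03 CPM (adjusted p = 0.0526). Of 8 naive pluripotency markers 4 fell too, as did Foxa2 of 4 definitive endoderm, Twist1 of 6 mesenchymal, Cdh5 of 5 endothelial and blood, Pax6 of 4 neural and Cdx2 of 5 trophoblast markers. Mesp1, Msgn1, Cdh5 and Cdx2 passed the count filter only through the nontreated EBs and could only be called lower. The 8 markers of visceral and parietal endoderm summed to 378, 276 and 447 CPM and to 209.9, 163 and 562 CPM, and all 8 missed the threshold. The part of these cell types in the Wnt gene differences was not tested.

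Leaving out single libraries moved the number of called Wnt genes widely. It was 2, 3 and 17 without nontreated EB library 1, 2 or 3 and 2, 6 and 10 without dTAG-13 EB library 1, 2 or 3, and 20 (15 lower and 5 higher, the 10 among them) without both short-transcript libraries. The calls over all genes moved too, to 301, 182 and 1293, to 184, 395 and 1148, and to 3233, in the same order. Lrp5 was called in all 15 alternatives, with an adjusted p of at most 0.0476. Rspo3 lost its call without dTAG-13 EB library 1 (adjusted p = 0.0623) and Wnt6 without nontreated EB library 1 (0.0511), each in 1 of 15 alternatives. Wnt3, Wnt5b, Wnt9b, Frzb, Wnt11, Fzd7 and Porcn each lost the call without nontreated EB library 1, nontreated EB library 2 or dTAG-13 EB library 1. Wnt9b, Wnt11, Fzd7 and Porcn also lost it without dTAG-13 EB library 2, and Porcn without library 3. Their adjusted p-values reached 0.130 for Wnt3, 0.141 for Wnt9b, 0.120 for Wnt5b, 0.0711 for Frzb, 0.0696 for Wnt11, 0.134 for Fzd7 and 0.115 for Porcn. No called gene changed direction.

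The difference between the dTAG-13 effect in tagged EBs and that in untagged mESCs was tested directly. It was called for 5 of 34 Wnt genes, 4 lower and 1 higher, where 2.88% of 15855 genes were called, 1.27% lower and 1.6% higher. Wnt6 differed by -3.37 ± 0.71 (log2, SE; adjusted p = 0.0250), Wnt11 by -1.82 ± 0.39 (0.0253), Wnt5b by -1.26 ± 0.25 (0.0171), Porcn by -1.05 ± 0.26 (0.0488) and Lrp5 by 0.65 ± 0.14 (0.0263). All 5 were also called within EBs. Lrp5 was at 75.3 ± 6.03 CPM in nontreated and 75.2 ± 10.4 CPM in dTAG-13 wild-type mESCs. Fzd7 missed the threshold (0.49 ± 0.13, adjusted p = 0.0697). Wnt3 had 11 counts over nontreated and 10 over dTAG-13 wild-type mESCs, Rspo3 had 6 and 12, and Frzb and Wnt9b had 0, so that their mESC effect is poorly measured or has no value. With the replicate block 8 genes were called, with Fzd4, Fzd10 and Rspo3 added. Without wild-type nontreated library 1, 2 or 3 it was 3, 0 and 1 genes, without wild-type dTAG-13 library 1, 2 or 3 it was 3, 2 and 2, without nontreated EB library 1, 2 or 3 it was 4, 2 and 10, and without dTAG-13 EB library 1, 2 or 3 it was 1, 3 and 4. Over these 12 settings 202 to 763 of all genes were called. The tag, the cell state, the medium and the length of exposure (72 h in mESCs and 6 days in EBs) differ together here and cannot be told apart.

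**Figure D4:**
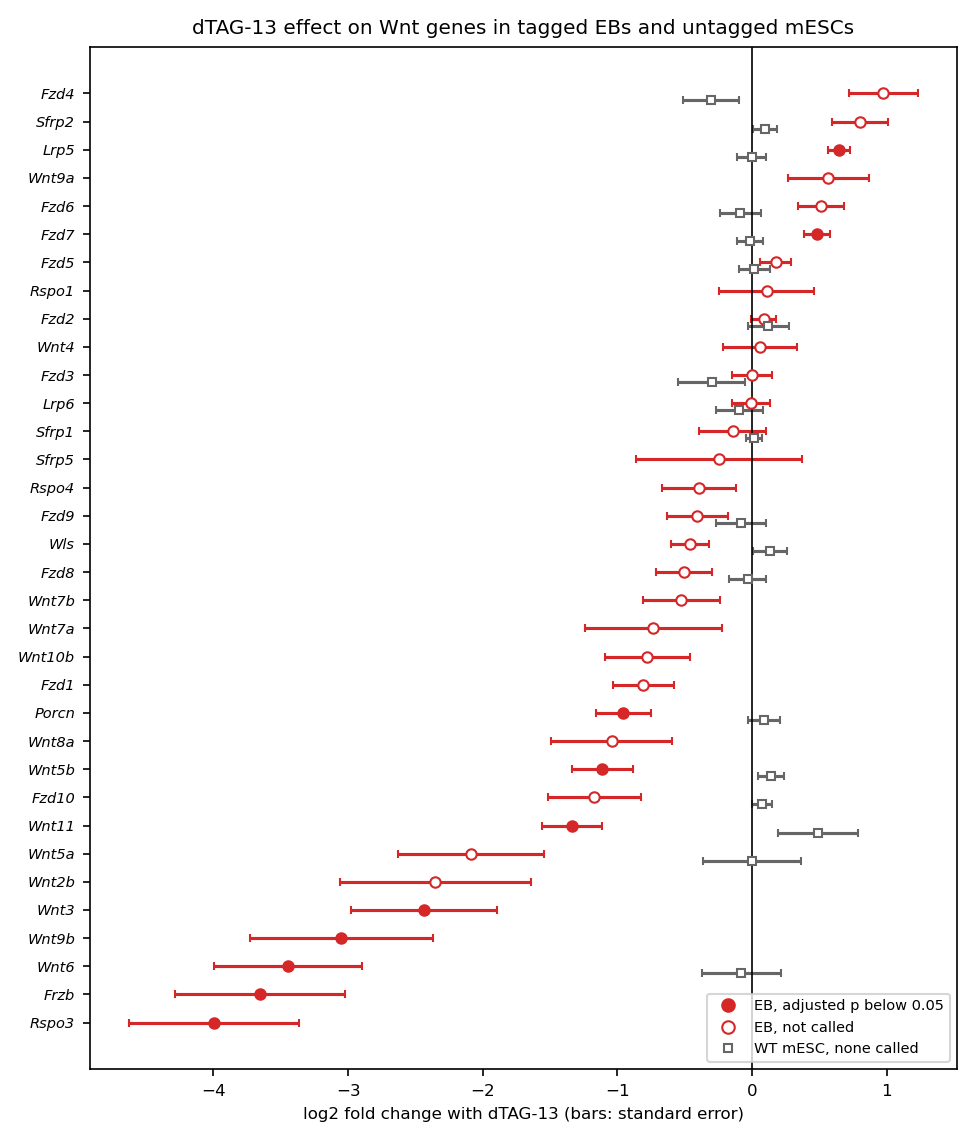
Fitted log2 fold change with dTAG-13 for the 34 genes tested in EBs of the tagged line (circles, filled where the adjusted p is below 0.05) and the 19 tested in untagged mESCs (squares), with bars of 1 standard error. The mESC values lie between -0.30 for Fzd4 and 0.49 for Wnt11, and the EB values reach from -3.99 for Rspo3 to 0.98 for Fzd4.

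Beyond these 41 genes, a list of 73 other genes of the pathway was followed. With dTAG-13 in wild-type mESCs 0 of 60 were called by edgeR, DESeq2 or limma-voom, with 5 at an unadjusted p below 0.05 in edgeR. In NSD1-dTAG against wild-type mESCs 4 of 61 tested were called, against 1.86% of all genes tested. Dkk3, of the Dickkopf family (10.7 ± 1.47 to 5.83 ± 0.795 CPM), the glypican Gpc3 (61.3 ± 2.77 to 37.9 ± 2.39 CPM) and Lef1, a nuclear partner of beta-catenin (22.2 ± 0.452 to 14.6 ± 0.922 CPM), were lower, and the target Myc (31.7 ± 1.21 to 46.9 ± 4.58 CPM) was higher. With the replicate block 9 were called (785 of all genes) and without NSD1-dTAG library 1 the number was 11 (1248 of all genes). Without any 1 of the other 5 libraries it was 0, where 1 to 12 of all genes were called.

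From mESCs to nontreated EBs 35 of 67 tested pathway genes rose and 9 fell, where 33.1% of all genes tested rose and 26.3% fell. Among mESCs alone, 61 of the 73 pathway genes passed the count filter. Genes that passed it only through the EB libraries could only be called higher, so that the number that rose is partly set by the filter. The feedback and target genes did not move as one. Notum, a secreted enzyme that removes the lipid from Wnt ligands, went from 167, 120.0 and 132 to 4.39, 6.42 and 5.35 CPM (-4.67 ± 0.20), and the targets Axin2 (-1.38 ± 0.17), Cdx1 (-4.68 ± 0.30) and Ccnd1 (-1.16 ± 0.11) fell as well. The targets T (3.77 ± 0.34), Sp8 (3.27 ± 0.32), Nkd1 (2.58 ± 0.24) and Nkd2 (3.29 ± 0.19) rose. The R-spondin receptor Lgr5 rose by 6.23 ± 0.73 and the antagonist Dkk1 by 5.14 ± 0.48. Of 14 genes of Dishevelled and the destruction complex 6 rose and 1, Csnk1a1, fell, with Csnk1e (0.95 ± 0.13) and Btrc (0.78 ± 0.11) among those that rose. The EB medium as listed lacks the GSK3 inhibitor, and its absence and differentiation cannot be told apart.

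With dTAG-13, 13 of 67 pathway genes were lower in EBs and 3 higher, against 2.78% lower and 3.98% higher of all genes tested. Of 10 tested direct targets 6 fell, Cdx2 (-4.90 ± 0.43), Cdx1 (-2.73 ± 0.39), Axin2 (-1.38 ± 0.20), Sp5 (-3.31 ± 0.76), Sp8 (-2.07 ± 0.43) and Nkd1 (-1.10 ± 0.21), and the other 4 missed the threshold. Cdx2, at 0.147, 0.281 and 0.367 CPM with dTAG-13, passed the count filter only through the nontreated EBs and could only be called lower. The same holds for any other gene of the list that passed the filter in this way. Axin2, a feedback inhibitor within the destruction complex, was at 46.2, 54.8 and 41.5 CPM in nontreated EBs and at 17.9, 23.7 and 13.2 CPM with dTAG-13, without overlap. Sp5, a transcription factor, was at 67.0, 102 and 44.1 CPM and at 5.76, 15.02 and 0.698 CPM, again highest in library 2 and lowest in library 3 of each group. Of 8 tested antagonists 5 fell, Dkk1 (-2.69 ± 0.39), Cer1 (-3.88 ± 0.69), Notum (-1.23 ± 0.26), Apcdd1 (-1.35 ± 0.22) and Trabd2b (-1.64 ± 0.40), and Sfrp4 rose (1.49 ± 0.30). Lgr5 fell, with a log2 difference of -3.80 ± 0.65, and Lgr4, another R-spondin receptor, rose by 0.60 ± 0.10. Vangl1, a planar polarity gene, fell (-0.64 ± 0.12) and the repressor Tcf7l1 rose (0.52 ± 0.11). The 14 tested genes of Dishevelled and the destruction complex all missed the threshold, 2 of them with an unadjusted p below 0.05. Without nontreated EB library 1, 2 or 3 the number of called pathway genes was 5, 3 and 16, and without dTAG-13 EB library 1, 2 or 3 it was 1, 9 and 20, with the calls over all genes as given for the Wnt genes.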

How the data were processed

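Poly(A) RNA was sequenced in 15 libraries. The authors deposited raw counts per gene, 1 table per library, per the labels. The library kit keeps strand and ERCC Mix 1 was added, per the labels' protocols. For the upstream steps the submitters' processing notes list bcl2fastq 2.20.0.422, STAR and DESeq2 1.30.0, with GRCm38.p6 and mm10 as builds. How strand was used in counting, and which annotation, is not given in the sources used here. GENCODE M21 (GRCm38) matched 55230 of 55471 gene IDs, and the rest took up to 0.00196% of counts. The 92 ERCC features (0.292% to 0.496% of counts in mESC libraries, and 0 in EBs) were kept out of sizes and tests. Of the 41 genes, 7 (Fzd5, Fzd6, Rspo3, Sfrp2, Wnt5a, Wnt7b and Wnt11) overlap an opposite-strand model, each with at most 34 counts over all libraries.

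The test was edgeR 4.0.16 (R 4.3.3; TMM, filterByExpr, quasi-likelihood F) on the libraries of each comparison, with Benjamini-Hochberg adjustment over all genes tested and calls at an adjusted p below 0.05. Printed CPM uses TMM factors over all 15 libraries, and levels per kb divide it by the union of exons. A group at 0 counts was set to 3 counts over the group for lower bounds, which, like the exact 95% intervals, cover counting error only. The fits were tested on simulated data. Alternatives were DESeq2 1.42.0, limma-voom (limma 3.58.1), other normalizations, no low-count filter, a gene-length offset, a replicate block and leaving out libraries. Leaving out the short-transcript libraries was chosen after seeing the data.

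The 41 genes, the lists and the tests were chosen with earlier results of these data known. Called genes with a mean of at least 1 CPM over the libraries compared are named, at most 25 by p-value, with up to 4 called pathway genes per role. Wnt9b lies below 1 CPM and was named after its values were seen, as were single pathway genes beyond the 4. Same-numbered libraries deviated together at r = 0.43, 0.19 and 0.17 between wild-type and NSD1-dTAG mESCs and at 0.21, 0.24 and 0.36 between the EB groups. In both comparisons the short-transcript libraries share a number. Between the EB groups, libraries 1 and 2 also correlated across numbers (0.15 and 0.10), whereas pairs of either with library 3 were at -0.28 to -0.21. The main test held group only, and pairing by number entered only as the replicate block. Tables and plots were made with pandas 2.3.3, numpy 2.4.6 and matplotlib 3.10.9 under Python 3.11.15.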

Additional observations from a re-analysis of the deposited data

Results flagged for a closer look

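The response to dTAG-13 differed between tagged EBs and untagged wild-type mESCs in 5 of the 34 genes tested for the difference itself. Over all 15855 genes tested, 2.88% were called. The log2 effect in EBs minus that in mESCs was -1.26 for Wnt5b, -3.37 for Wnt6, -1.82 for Wnt11, -1.05 for Porcn and 0.65 for Lrp5. Over 21 alternatives the adjusted p reached at most 0.0536 for Wnt5b, 0.0826 for Wnt6, 0.0794 for Wnt11, 0.131 for Lrp5 and 0.122 for Porcn. The difference stayed past the threshold in 18 of the 21 for Wnt5b, 15 for Lrp5, 14 for Wnt6, 14 for Wnt11 and 7 for Porcn. Tag, cell state, medium and length of exposure cannot be told apart.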

How the results depend on the processing

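Counts of called genes are given as the 41 Wnt genes, the pathway list and all genes, in that order. For NSD1-dTAG against wild-type mESCs (1, 4 and 259) they were 2, 7 and 636 with DESeq2, 3, 9 and 785 under the replicate block, 4, 13 and 1388 once a gene-length offset joined that block, 0, 0 and 1 with ERCC scaling, and 7, 23 and 3123 without the short-transcript libraries. The length offset alone gave 2 Wnt genes and 650 genes, and a spread shared by all 15 libraries 500 genes. For EBs with against without dTAG-13 (10, 16 and 1030) the Wnt genes called were 17 with DESeq2, 18 with no filter on low counts, 17 with the replicate block, 17 with block and length offset, 17 with the shared spread and 20 without the short-transcript libraries. Pathway calls were 25 with the shared spread and 28 without those libraries. All genes came to 1686 with DESeq2, 1834 with the block, 1829 with block and length offset, 1931 with the shared spread and 3233 without those libraries. For the difference between EBs and wild-type mESCs (5, 14 and 456) the Wnt genes were 9 with DESeq2, 3 with limma-voom, 12 with no filter, 8 with the block, 8 with block and length offset and 9 without the short-transcript libraries, and all genes 799 with DESeq2, 915 with no filter, 726 with block and length offset and 1897 without those libraries. In wild-type mESCs with dTAG-13 (0, 0 and 0), leaving out the short-transcript libraries gave 1 pathway gene and 16 genes. The cause of these shifts was not tested. Leaving out 1 library at a time gave 0 to 0 for all 3 counts in wild-type mESCs with dTAG-13. It gave 0 to 4, 0 to 11 and 1 to 1248 for the knock-in, 30 to 31, 38 to 51 and 7718 to 10169 for EBs against mESCs, 2 to 17, 1 to 20 and 182 to 1293 for dTAG-13 in EBs, and 0 to 10, 8 to 16 and 202 to 763 for the difference. Where this leaves 2 libraries against 3, the spread is pooled over both groups. Of the single-gene values under an alternative 3602 kept their side of the threshold, 240 lost the call, 108 gained one and 2 reversed. A change of sign was counted as reversed only where the value of the main test or of the alternative was called. The 3602 can thus hold changes of sign among uncalled values. Both reversed values were in NSD1-dTAG against wild-type mESCs without the short-transcript libraries: Apc (log2 0.13, adjusted p = 0.0035) and Lrp5 (log2 0.11, adjusted p = 0.0469), neither of them called in the full set. The shares of Wnt5b, Wnt8a, Wnt3, Fzd7 and Fzd5 kept within 1 SD with plain library totals or longest transcripts. Of 30 class sums per kb 7 moved by more than 1 SD with plain totals (all 30 stayed between 0.928 and 1.06 times the printed value) and 9 with longest transcripts, most of all Porcn plus Wls, from 10.7 to 20.01 in nontreated and from 6.75 to 13.4 in dTAG-13 EBs and from 1.43 to 2.31 in NSD1-dTAG mESCs. Same-numbered libraries correlated at -0.16, 0.13 and -0.13 between the wild-type groups and at -0.17, 0.11 and -0.24 between mESCs and EBs, so these share only a number, and the replicate block left 0 and 31 Wnt genes called.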
